A study of Mus musculus with 4 samples.

Results

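Metallothioneins are small proteins in which cysteines hold zinc and copper ions. The genes described here are Mt1, Mt2 and Mt3, 3 of the 23283 gene symbols that had a value in every library of an RNA sequencing study of Menin in mouse Th2 cells. They were named by symbol and selected on the measured FPKM of Mt3, whose difference between Menin knockout and wild type cells turned round between a short and a long culture. The genotype values of these genes are therefore a description. The cells were splenic CD4 T cells of C57BL/6 mice grown into Th2 cells, the helper T cells that make IL-4, IL-5 and IL-13. The groups were Menin KO at 5 days, wild type (WT) at 5 days, Menin KO at 3 weeks and WT at 3 weeks, with 1 library in each. All cells spent their first 5 days in IL-2 (15 ng/ml) plus IL-4 (10 ng/ml), after which the 5-day cells were collected. The longer culture, labelled as 3 weeks, went on with 2 days free of added cytokines. It ended with 5 days of restimulation through the T cell receptor by plate-bound antibody, in IL-2 and with IL-4 blocked by antibody. The stated steps are shorter than the 3 weeks of the label, and the sources used here do not give what filled the rest, how Menin was deleted or how many mice gave each library. With 1 library in a group no difference has a replicate check. A model that takes the genotype difference to be equal at both times was not fitted, and no p-value is given.

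Mt1 and Mt2 are switched on by the zinc-sensing transcription factor MTF-1, encoded by Mtf1, which binds metal response elements in their promoters. Mt1 and Mt2 are expressed in most tissues, and metals, glucocorticoids and oxidative stress are known to induce them. Mt3 is best known from the brain, where the protein was described as a growth inhibitory factor for neurons, and Mt4 from stratified squamous epithelium. Menin, encoded by Men1, is a subunit of histone methyltransferase complexes of the Trithorax group.

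The coding sequences are shown because the cysteine codons are what makes a metallothionein and because the likeness of the genes bears on how reads were assigned to them. They were read from GENCODE M21 transcripts (GRCm38), 5′ to 3′ on the plus strand of chromosome 8, with the in-frame cysteine codons in capitals.
Mt1: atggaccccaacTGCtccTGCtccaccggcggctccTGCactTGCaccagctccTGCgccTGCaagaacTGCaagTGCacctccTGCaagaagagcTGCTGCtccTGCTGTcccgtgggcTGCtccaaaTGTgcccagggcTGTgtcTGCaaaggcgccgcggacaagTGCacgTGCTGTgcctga
Mt2: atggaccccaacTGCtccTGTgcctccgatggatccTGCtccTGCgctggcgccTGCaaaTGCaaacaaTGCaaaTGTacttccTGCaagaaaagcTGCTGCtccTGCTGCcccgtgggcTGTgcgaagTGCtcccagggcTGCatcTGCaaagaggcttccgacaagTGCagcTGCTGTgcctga
Mt3: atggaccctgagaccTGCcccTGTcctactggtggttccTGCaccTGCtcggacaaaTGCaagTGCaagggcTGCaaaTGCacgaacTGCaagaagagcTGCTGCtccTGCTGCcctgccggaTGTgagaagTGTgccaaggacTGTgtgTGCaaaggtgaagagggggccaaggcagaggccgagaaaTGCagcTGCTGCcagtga
Each coding sequence held 20 cysteine codons, 16 of them TGC and 4 TGT. Mt1 and Mt2 had 61 codons before the stop and Mt3 had 68. Identity over the 186 aligned bases was 79.6% between Mt1 and Mt2, 73.7% between Mt1 and Mt3 and 75.3% between Mt2 and Mt3, and the alignments with Mt3 left 21 bases of Mt3 unpaired. The longest run of bases that a pair of transcripts shared was 27, between Mt1 and Mt3. No run of 36 bases in any of the 3 transcripts was found, in the same direction, in the transcripts of another annotated gene. Antisense matches were not searched, and the length of the reads is not given.

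The promoters are shown because the metal response element is the textbook control site of Mt1 and Mt2. The promoter sequences come from RefSeq on GRCm38.p6 and run from 250 bases before the start site to 50 after it, on the plus strand. Capitals mark the metal response element core, searched as TGCACNC or TGCGCNC on both strands.
Mt1, chr8:94178839-94179138: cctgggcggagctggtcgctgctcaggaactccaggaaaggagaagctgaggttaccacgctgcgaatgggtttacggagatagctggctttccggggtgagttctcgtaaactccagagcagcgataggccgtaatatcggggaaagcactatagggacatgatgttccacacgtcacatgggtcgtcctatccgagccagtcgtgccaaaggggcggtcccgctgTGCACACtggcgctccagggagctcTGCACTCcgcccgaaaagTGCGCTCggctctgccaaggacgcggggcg
Mt2, chr8:94172368-94172667: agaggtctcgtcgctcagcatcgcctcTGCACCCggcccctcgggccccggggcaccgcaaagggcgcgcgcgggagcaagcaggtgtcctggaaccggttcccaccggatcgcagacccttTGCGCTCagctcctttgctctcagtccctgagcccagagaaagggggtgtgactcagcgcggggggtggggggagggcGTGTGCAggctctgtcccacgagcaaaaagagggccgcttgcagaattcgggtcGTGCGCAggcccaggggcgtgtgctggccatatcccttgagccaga
Mt3, chr8:94152357-94152656: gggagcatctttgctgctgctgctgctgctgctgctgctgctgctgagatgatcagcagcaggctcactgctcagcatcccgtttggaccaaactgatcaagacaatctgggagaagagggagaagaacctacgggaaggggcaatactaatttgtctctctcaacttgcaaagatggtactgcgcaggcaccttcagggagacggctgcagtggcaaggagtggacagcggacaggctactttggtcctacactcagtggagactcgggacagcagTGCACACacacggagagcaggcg
The Mt2 window held 4 cores, the Mt1 window 3 and the Mt3 window 1. Of 32851 promoter windows of this length, 25.7% held at least 1 core, 1.97% at least 3 and 0.517% at least 4. The single core of Mt3 lay 27 bases after the start site. The core nearest upstream of the Mt1 start lay 23 bases before it, and that of Mt2 lay 50 bases before it on the opposite strand. The share of G and C was 60.7% in Mt1, 67.7% in Mt2 and 56.0% in Mt3. The Mt2 window also held 1 match to the antioxidant response element core TGACNNNGC, found in 12.4% of windows, and the other windows held 0. The hypoxia response element core was searched as ACGTG or GCGTG, found in 19.6% and 32.4% of windows. Mt1 had 1 match to each, Mt2 had 2 matches to GCGTG, and Mt3 had none. The Mt2 match 52 bases before the start overlapped a metal response element core. The full palindromic glucocorticoid response element, found in 0.00913% of windows, and the STAT element TTCNNNGAA, found in 8.3%, had 0 matches in all 3 windows. Other annotated transcripts start 122 and 152 bases after the RefSeq start in Mt1, 46 and 242 bases after it in Mt2 and 139 in Mt3. Their promoters were not searched. The counts and positions of cores therefore hold for the RefSeq windows only and may miss control sites nearer to those other starts.

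Values are deposited FPKM, that is fragments per length of transcript and per depth of library. Depth was not stated and was inferred from the steps of low values as 20.7 to 23.5 M reads in a library. Men1 stood at 10.3 FPKM in KO and 32.8 FPKM in WT cells at 5 days, and at 5.88 FPKM in KO and 25.4 FPKM in WT cells at 3 weeks. The KO cells thus kept 31.5% and 23.1% of the WT level at these times. Cd4 ranged over 147 to 307 FPKM and Gata3, the transcription factor that defines Th2 cells, over 45.9 to 93.8 FPKM. At 3 weeks 6 of 8 Th2 identity genes were at least 2-fold lower in KO than in WT cells, as were 8.19% of all compared genes. The count was 4 with either other scaling of the libraries or a pseudocount of 5. Among markers of other cells, the summed level of 5 natural killer cell genes was 2.24 in KO and 0.321 FPKM in WT cells at 5 days, and 2.42 in KO and 0.0174 FPKM in WT cells at 3 weeks. For 8 myeloid genes the sums were 2.96 in KO and 0.911 FPKM in WT cells at 5 days, and 7.19 in KO and 0.33 FPKM in WT cells at 3 weeks. From 1 to 4 of the natural killer genes and from 1 to 4 of the myeloid genes were listed at 0 in a library, Elane in all 4, and most of the KO 3-week myeloid sum was Itgam at 4.75 and Cd14 at 2.03 FPKM. The 6 B cell genes summed to at most 2.77 FPKM and the 2 CD8 genes to at most 5.7 FPKM. Of the 8 neural genes, which summed to 16.1 to 29.0 FPKM, Mbp gave 15.0 to 28.7 FPKM, while the astrocyte marker Aqp4 was listed at 0 in all 4 libraries and Gfap reached 0.02 FPKM. The 6 stromal genes summed to 28.8 to 52.2 FPKM, mostly Pecam1, and the 8 matched erythroid genes to 4.33 in KO and 14.5 FPKM in WT cells at 5 days and to at most 1.8 FPKM at 3 weeks. The part of any of these in the metallothionein values was not tested. In bulk RNA, fewer cells of a type and less RNA per cell cannot be told apart.

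Mt1 was the most abundant member and Mt3 the least in every library. Mt1 stood at 436 FPKM in KO and 307 FPKM in WT cells at 5 days, and at 689 FPKM in KO and 362 FPKM in WT cells at 3 weeks. KO cells were thus higher than WT cells at both times, and the KO 3-week library was the highest, where Mt1 held rank 88 of 23283 symbols. Mt2 stood at 162 FPKM in KO and 102 FPKM in WT cells at 5 days, and at 277 FPKM in KO and 149.9 FPKM in WT cells at 3 weeks. The order of the libraries was that of Mt1, except that the KO 5-day and WT 3-week libraries could not be told apart within counting error in Mt2 (ratio 1.08, interval 0.994 to 1.18). Mt3 stood at 26.9 FPKM in KO and 8.58 FPKM in WT cells at 5 days, and at 14.2 FPKM in KO and 40.5 FPKM in WT cells at 3 weeks. Its highest and its lowest library were both WT, and its order was WT 3-week, KO 5-day, KO 3-week, WT 5-day. These intervals, here and below, are exact 95% intervals from the reads that the FPKM values imply and cover counting error only. As Mt3 was selected on these same FPKM values, its intervals describe them and do not test its order or its turn. In Mt3 each step down that order was larger than counting error, at 1.5 times (1.26 to 1.8) for WT 3-week over KO 5-day, 1.89 times (1.49 to 2.44) for KO 5-day over KO 3-week and 1.66 times (1.18 to 2.3) for KO 3-week over WT 5-day. The reads implied for Mt3 were 205 in KO and 60 in WT cells at 5 days, and 102 in KO and 320 in WT cells at 3 weeks, so its ratios are less precise than those of Mt1, with 2217 to 5152 reads. Mt4 was listed at 0 in all 4 libraries.

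**Figure D1:**
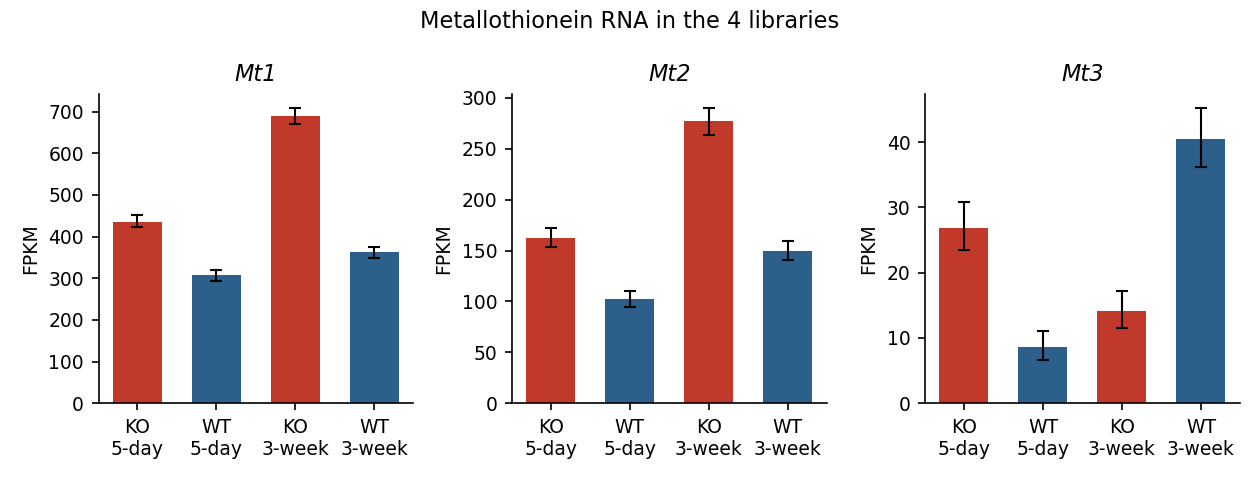
Bars give the FPKM of Mt1, Mt2 and Mt3 in each of the 4 libraries, on a linear axis of its own for each gene, with KO in red, WT in blue and whiskers for the 95% counting interval. In Mt1 and Mt2 the KO bar lies above the WT bar at both times, while in Mt3 it lies above at 5 days (26.9 against 8.58) and below at 3 weeks (14.2 against 40.5).

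At 5 days all 3 genes were higher in KO than in WT cells. The KO over WT ratio was 1.42 in Mt1 (1.35 to 1.5), 1.58 in Mt2 (1.44 to 1.75) and 3.14 in Mt3 (2.33 to 4.23). Genes were compared when their mean over the 4 libraries was at least 1 FPKM, which held for 10973 symbols and all 3 members, and log2 ratios were taken after adding 1 FPKM. On that scale the differences were 0.51 in Mt1, 0.66 in Mt2 and 1.54 in Mt3. Mt3 was at least 2-fold higher, a mark that 2.77% of compared genes passed upward and 0.82% downward, 3.59% in all. Mt1 and Mt2 lay under it, with log2 ratios above those of 91.5% and 94.2% of compared genes.

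At 3 weeks Mt1 and Mt2 were again higher in KO cells and Mt3 was lower. The KO over WT ratio was 1.9 in Mt1 (1.82 to 1.99), 1.85 in Mt2 (1.71 to 1.99) and 0.351 in Mt3 (0.277 to 0.438). The log2 differences were 0.93, 0.88 and -1.45. In the long culture 7.97% of compared genes were at least 2-fold higher in KO cells and 8.19% at least 2-fold lower, 16.2% in all. Of the members, Mt3 was at least 2-fold lower and none was at least 2-fold higher. Mt1 and Mt2 stood just under that mark, and other scalings of the libraries put Mt1 over it (log2 1.03 with the median of ratios, 1.06 with the upper quartile) and Mt2 over it with the upper quartile (1.02). Their log2 ratios were above those of 91.2% and 90.5% of compared genes, and that of Mt3 was above 2.95%. The median over all compared genes was -0.02 at 5 days and -0.08 at 3 weeks.

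The KO over WT difference at 3 weeks minus that at 5 days was -2.99 on the log2 scale in Mt3, 0.42 in Mt1 and 0.22 in Mt2. Leaving out short RNA genes, 10806 compared genes remained, and Mt3 held place 9 from the lowest. With short RNA genes kept, 0.447% of the 10973 compared genes lay below it. As Mt3 was selected on this turn, its place is a description and no measure of rarity. Of the 10806 genes, 0.37% had a difference at least 4-fold lower at 3 weeks, against 0.784% with short RNA genes kept. Only 4 genes of the 10806 (0.037%, or 0.137% with short RNA genes kept) were at least 2-fold higher in KO cells at 5 days and at least 2-fold lower at 3 weeks, which were Mt3, Cox6b2, Ctsh and S100a5. Cox6b2, the testis form of a cytochrome c oxidase subunit, stood at 22.8 FPKM in KO and 10.9 FPKM in WT cells at 5 days, and at 2.84 FPKM in KO and 19.3 FPKM in WT cells at 3 weeks. Ctsh, the lysosomal protease cathepsin H, stood at 5.87 FPKM in KO and 1.25 FPKM in WT cells at 5 days, and at 8.49 FPKM in KO and 22.6 FPKM in WT cells at 3 weeks. S100a5, a calcium-binding protein that also binds zinc and copper, stood at 6.73 FPKM in KO and 1.47 FPKM in WT cells at 5 days, and at 2.22 FPKM in KO and 13.7 FPKM in WT cells at 3 weeks. Mt3, Ctsh and S100a5 had their highest level in the WT 3-week library and their lowest in the WT 5-day library, while Cox6b2 was highest in KO cells at 5 days and lowest in KO cells at 3 weeks. The opposite turn was made by Ccl4, Nt5e and Tcf7, which brings the genes that turned in either direction to 7 (0.0648%, or 0.237% with short RNA genes kept).

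**Figure D2:**
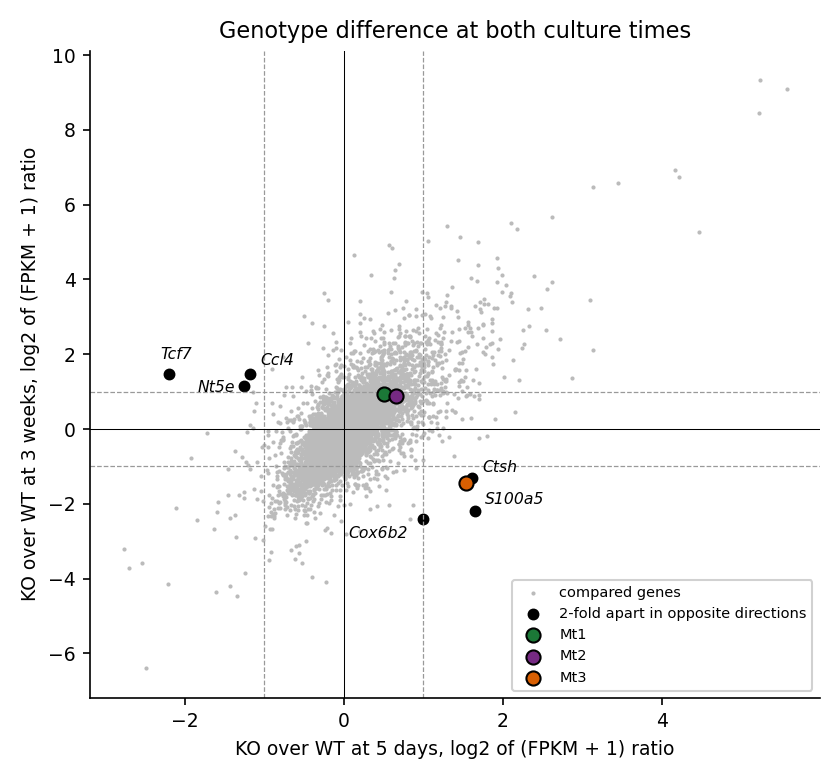
KO over WT log2 ratio of FPKM + 1 at 5 days (x axis) and at 3 weeks (y axis) for each compared gene, with dashed lines at 2-fold. Mt1 (0.51, 0.93) and Mt2 (0.66, 0.88) lie in the upper right quadrant, and Mt3 (1.54, -1.45) lies in the lower right one beside Ctsh and S100a5.

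Set against their own genotype at 5 days, the 3-week cells showed opposite values of Mt3. These contrasts use the same libraries as the genotype contrasts and add no independent measurement. The long culture differed from the short one in length and also in the rest without added cytokines, the restimulation and the IL-4 block. Their shares in the contrasts cannot be told apart. In KO cells Mt1 was 1.58 times and Mt2 1.71 times as high at 3 weeks as at 5 days, while Mt3 stood at 0.528 (0.411 to 0.67) of its 5-day level. None of the members was 2-fold apart in KO cells, where 4.35% of compared genes passed that mark upward and 4.39% downward, 8.74% in all. In WT cells Mt1 was 1.18 times (1.11 to 1.25) and Mt2 1.47 times as high at 3 weeks as at 5 days, and Mt3 was 4.72 times as high (3.55 to 6.29). Mt3 was thus the only member at least 2-fold higher in the long WT culture, as 3.03% of compared genes were, with 2.83% lower and 5.86% in all. The turn of Mt3 was made up more of the WT difference, 2.11 on the log2 scale, than of the KO difference, -0.87.

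The 3 genes together made 625 FPKM in KO and 418 FPKM in WT cells at 5 days, and 979.7 FPKM in KO and 552 FPKM in WT cells at 3 weeks. As Mt1 and Mt2 made up nearly all of the sum, it was 1.5 times as high in KO as in WT cells at 5 days and 1.77 times at 3 weeks. Mt3 made up 4.31% of the sum in KO and 2.05% in WT cells at 5 days, and 1.45% in KO and 7.33% in WT cells at 3 weeks. The proportion of Mt1 to Mt2 varied less than that of Mt3, at 2.69 times in KO and 3.0 times in WT cells at 5 days, and 2.49 times in KO and 2.41 times in WT cells at 3 weeks. Between the WT cultures Mt1 and Mt2 differed beyond counting error, as their ratios of 1.18 (1.11 to 1.25) and 1.47 (1.33 to 1.62) show.

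The cluster lies on the plus strand of mouse chromosome 8, at GRCm38 coordinates 94152607 to 94154146 for Mt3, 94172664 to 94173568 for Mt2 and 94179082 to 94180327 for Mt1, with Mt4 from 94137197 to 94139031. Mt4 to Mt1 span 43.1 kb, and Mt3 is 18.5 kb from Mt2, which is 5.51 kb from Mt1. The annotation places the antisense gene Gm45774 across Mt2. The library kit keeps strand, but the sources used here do not give whether counting used it, so reads from that gene and Mt2 may not be told apart. Over all compared genes, 3.59% were at least 2-fold apart at 5 days and 16.2% at 3 weeks. Of 6 neighbouring genes that were compared, 0 were at 5 days and 1 at 3 weeks, so the count is near the background. That gene was Nup93, which encodes a nuclear pore protein and lies beyond Mt1, at 24.5 FPKM in KO and 62.4 FPKM in WT cells. Nup93 stood at 39.7 FPKM in KO and 49.7 FPKM in WT cells at 5 days. The medians of the 6 neighbours were -0.13 at 5 days and -0.19 at 3 weeks.

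**Figure D3:**
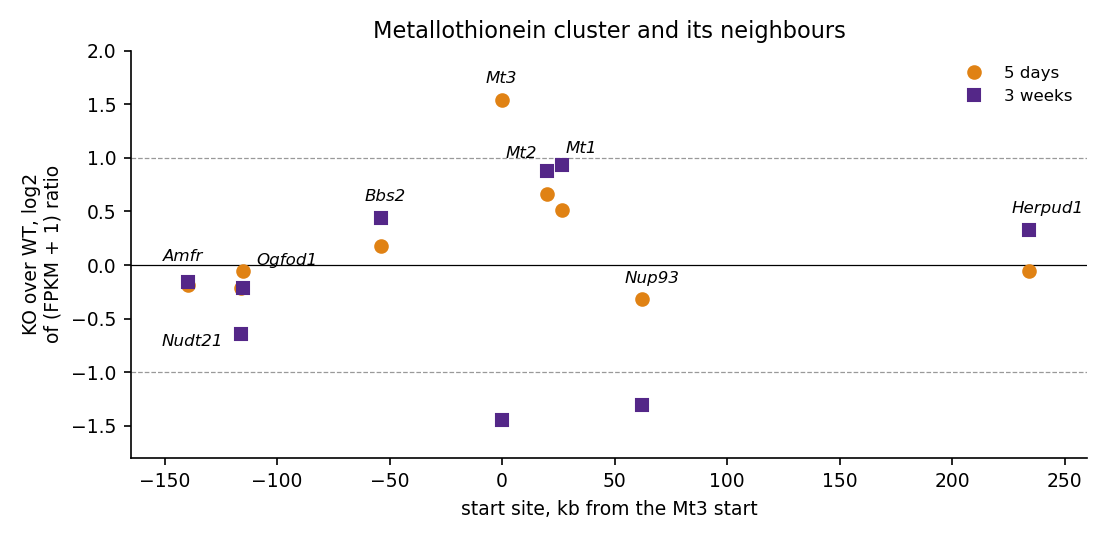
KO over WT log2 ratio of FPKM + 1 against the distance of each gene's start site from the Mt3 start, in kb, for the compared genes of the cluster and its neighbours, with circles for 5 days and squares for 3 weeks. Mt3 is at 1.54 and -1.45, Mt2 and Mt1 are above 0 at both times, and of the neighbours Nup93 alone passes a dashed 2-fold line, at -1.31 at 3 weeks.

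Among the compared genes that sense and move zinc, none was 2-fold apart between the genotypes. Of all compared genes, 3.59% were 2-fold apart at 5 days and 16.2% at 3 weeks. Mtf1 stood at 3.21 FPKM in KO and 3.13 FPKM in WT cells at 5 days, and at 3.36 FPKM in KO and 3.67 FPKM in WT cells at 3 weeks, and the counting intervals of both ratios held 1 (0.905 to 1.16 and 0.815 to 1.03). Slc30a1, a zinc exporter that MTF-1 is known to induce, stood at 2.15 FPKM in KO and 1.33 FPKM in WT cells at 5 days, and at 2.31 FPKM in KO and 1.73 FPKM in WT cells at 3 weeks. Its KO over WT ratios of 1.62 (1.31 to 2.0) and 1.33 (1.11 to 1.62) were above 1, like those of Mt1 and Mt2. The ratio of Slc30a1 was lower at 3 weeks than at 5 days, while those of Mt1 and Mt2 were higher. The counting intervals at the 2 times overlapped in Slc30a1 and in Mt2, though not in Mt1. A link between these genes through MTF-1 was not tested. At 3 weeks the importers Slc39a13 and Slc39a14 were higher in KO cells, with ratios of 1.71 (1.51 to 1.94) and 1.58 (1.39 to 1.79), and the transporters Slc30a5 and Slc39a6 were lower, with 0.636 (0.59 to 0.686) and 0.649 (0.613 to 0.687). The 7 compared zinc sensing and export genes and the 11 zinc import genes had medians of 0.02 and 0.08 at 5 days and -0.04 and -0.07 at 3 weeks. Slc39a6, a zinc importer, was at least 2-fold higher in the long than in the short culture in both genotypes, at 24.2 FPKM at 3 weeks and 11.4 FPKM at 5 days in KO cells, and at 37.2 FPKM at 3 weeks and 12 FPKM at 5 days in WT cells.

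Over all compared genes, 3.59% were 2-fold apart at 5 days and 7.97% were at least 2-fold higher in KO cells at 3 weeks. Of 11 compared copper genes, 0 were 2-fold apart at 5 days, and 2 were at least 2-fold higher in KO cells at 3 weeks. These were Slc31a2, a copper transporter, at 23.6 FPKM in KO and 7.18 FPKM in WT cells, and Steap3, a metalloreductase, at 8.97 FPKM in KO and 0.529 FPKM in WT cells. Both also stood higher in KO cells at 5 days, Slc31a2 at 8.94 FPKM in KO and 3.98 FPKM in WT cells and Steap3 at 3.51 FPKM in KO and 1.37 FPKM in WT cells. Their plain FPKM ratios at 5 days were 2.24 and 2.56, so that the count of 0 rests on the 1 FPKM added: it was 2 with a pseudocount of 0.1, and 1 with either other scaling. The other 9 were lower in KO cells at 3 weeks, among them Sod1, the copper and zinc superoxide dismutase, at 511 FPKM in KO and 890.1 FPKM in WT cells. Some were only slightly lower, such as Ccs at 22.9 FPKM in KO and 24.3 FPKM in WT cells. The list's median was -0.32, against -0.08 over all compared genes.

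Of 23 oxidative stress genes, 1 was at least 2-fold higher in KO cells at 5 days and 0 were lower, and at 3 weeks 5 were higher and 3 lower. Over all compared genes the shares were 2.77% higher and 0.82% lower at 5 days, and 7.97% higher and 8.19% lower at 3 weeks. Osgin1, an oxidative stress response gene, passed at 5 days, though not with a pseudocount of 5, at 9.99 FPKM in KO and 4.3 FPKM in WT cells, and at 3 weeks it stood at 39.9 FPKM in KO and 2.26 FPKM in WT cells. The others higher at 3 weeks were Ftl1, Sqstm1, Hmox1 and Nfe2l2. Ftl1, the ferritin light chain, stood at 1328 FPKM in KO and 362 FPKM in WT cells. Hmox1, the haem oxygenase, stood at 20.7 FPKM in KO and 7.53 FPKM in WT cells, and Nfe2l2, which encodes the regulator NRF2, at 22.1 FPKM in KO and 9.85 FPKM in WT cells. Those lower were Gclm and Slc7a11, which serve glutathione synthesis, and Gpx1, a glutathione peroxidase, at 71.4 FPKM in KO and 146 FPKM in WT cells. The medians were -0.09 at 5 days and 0.02 at 3 weeks, against -0.02 and -0.08 over all compared genes. With either other scaling, or a pseudocount of 5, 1 gene in place of 3 was lower at 3 weeks.

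Of 13 glucocorticoid response genes, 0 were 2-fold apart at 5 days, with a median of 0.14, and 4 were at least 2-fold higher in KO cells at 3 weeks, with a median of 0.52. Of the compared genes as a whole, 3.59% were 2-fold apart at 5 days and 7.97% were higher at 3 weeks. Their medians were -0.02 at 5 days and -0.08 at 3 weeks. Sgk1, a kinase, stood at 32.9 FPKM in KO and 2.94 FPKM in WT cells at 3 weeks, and Anxa1, annexin A1, at 184 FPKM in KO and 36.6 FPKM in WT cells. Ddit4 and Tsc22d3 were the others, and 12 of the 13 were above 0. In WT cells 2 of the 13 were at least 2-fold lower at 3 weeks than at 5 days, and in KO cells 0. The shares over all compared genes were 2.83% in WT and 4.39% in KO cells. The receptor gene itself, Nr3c1, ranged over 16.7 to 19.8 FPKM. The myeloid sum was also higher in the KO than in the WT 3-week library, as given above, mostly through Itgam and Cd14. Lyz2 was lower, at 0.0 FPKM in KO and 0.0989 FPKM in WT cells, and Csf1r, Elane and Siglech were listed at 0 in both. The part of the myeloid genes in the glucocorticoid values was not tested.

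Of 20 genes of the hypoxia response, 0 were higher and 1 lower in KO cells at 5 days, and 1 was higher and 3 lower at 3 weeks, with medians of -0.06 and 0.05. The 4 at 3 weeks are near the 16.2% of all compared genes that were 2-fold apart, a share that was 3.59% at 5 days. With either other scaling 0 were lower at 3 weeks, and with a pseudocount of 5 there were 0 calls at either time. Vegfa, the endothelial growth factor, stood at 4.08 FPKM in KO and 0.542 FPKM in WT cells at 3 weeks, while Bnip3, a mitophagy receptor, stood at 28.9 FPKM in KO and 60.3 FPKM in WT cells. Of 13 heat shock genes, 0 were 2-fold apart at 5 days and 3 were lower at 3 weeks, with 12 of 13 below 0 and medians of -0.15 and -0.71, against 8.19% lower and medians of -0.02 and -0.08 over all compared genes. The count was 2 with either other scaling. Hspd1, the mitochondrial chaperonin, stood at 37.5 FPKM in KO and 113 FPKM in WT cells at 3 weeks, and Hsp90aa1 at 54.4 FPKM in KO and 161 FPKM in WT cells. Of 11 genes of the IL-27, STAT and IL-10 list, 1 was at least 2-fold higher in KO cells at 5 days. This was Maf, a transcription factor that drives Il10, at 43.7 FPKM in KO and 13.7 FPKM in WT cells. At 3 weeks 0 of the 11 were 2-fold apart. Over all compared genes, 2.77% were higher at 5 days and 16.2% were 2-fold apart at 3 weeks.

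**Figure D4:**
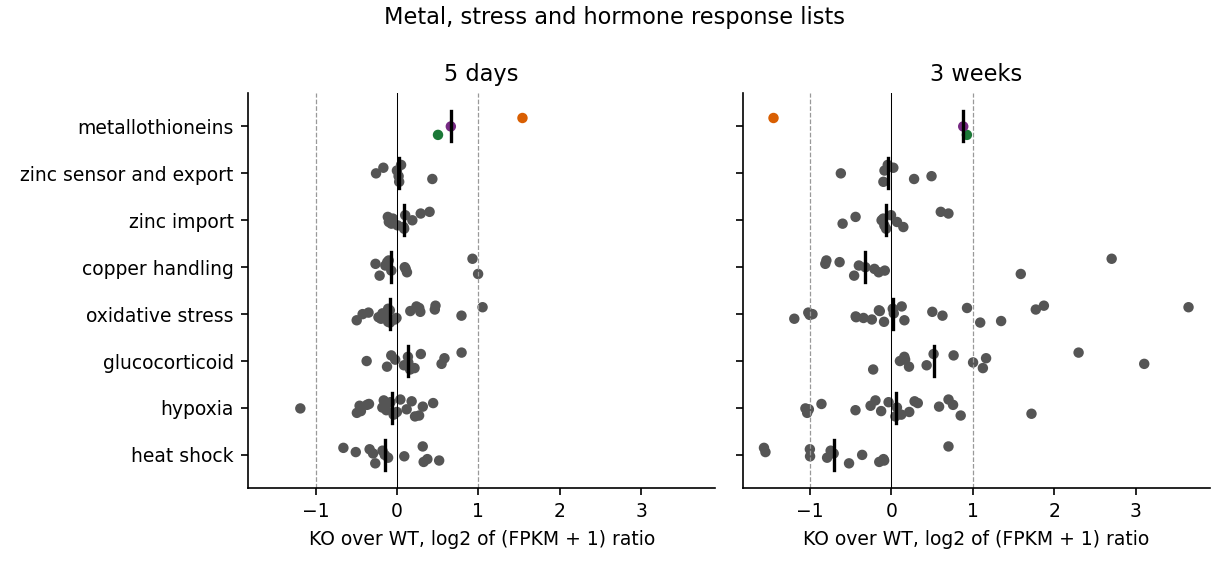
KO over WT log2 ratio of FPKM + 1 for the compared genes of each list at both times, with a black bar at each list's median and Mt1 in green, Mt2 in purple and Mt3 in orange. The glucocorticoid genes at 3 weeks have a median of 0.52 and the heat shock genes one of -0.71, while the zinc lists stay near 0.

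The genes most like each member over the 4 libraries were found by the distance between log2 profiles centred on their mean, among 10806 genes. With 4 libraries many genes follow any shape, so the nearest are a description. Those nearest Mt1 were Uba7, Lipa, Akr1b3, Nfat5 and Ptpn22, at distances of 0.04 to 0.08. Uba7, the enzyme that activates the ubiquitin-like ISG15, stood at 20.0 FPKM in KO and 13.5 FPKM in WT cells at 5 days, and at 30.8 FPKM in KO and 16.1 FPKM in WT cells at 3 weeks. Those nearest Mt2 were Kif13a, Notch2, Ifi27l1, Aifm2 and H2-M3, at 0.06 to 0.1. Mt2 itself held place 142 from Mt1 at a distance of 0.24, while Mt3 held place 10159 by distance. By correlation Mt3 held place 4699 of 10805 from Mt1, with a coefficient of -0.003. Those nearest Mt3 by distance were S100a5 at 0.53, then Exoc3l, Crip2, Neb and Peg10 at up to 0.68. Distance grows with the size of a gene's swings, and by correlation S100a5 held place 14. Peg10, an imprinted gene derived from a retrotransposon, stood at 11.8 FPKM in KO and 3.91 FPKM in WT cells at 5 days, and at 5.99 FPKM in KO and 10.6 FPKM in WT cells at 3 weeks. Ranking by correlation in place of distance kept 0 of the 5 nearest genes of each member.

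**Figure D5:**
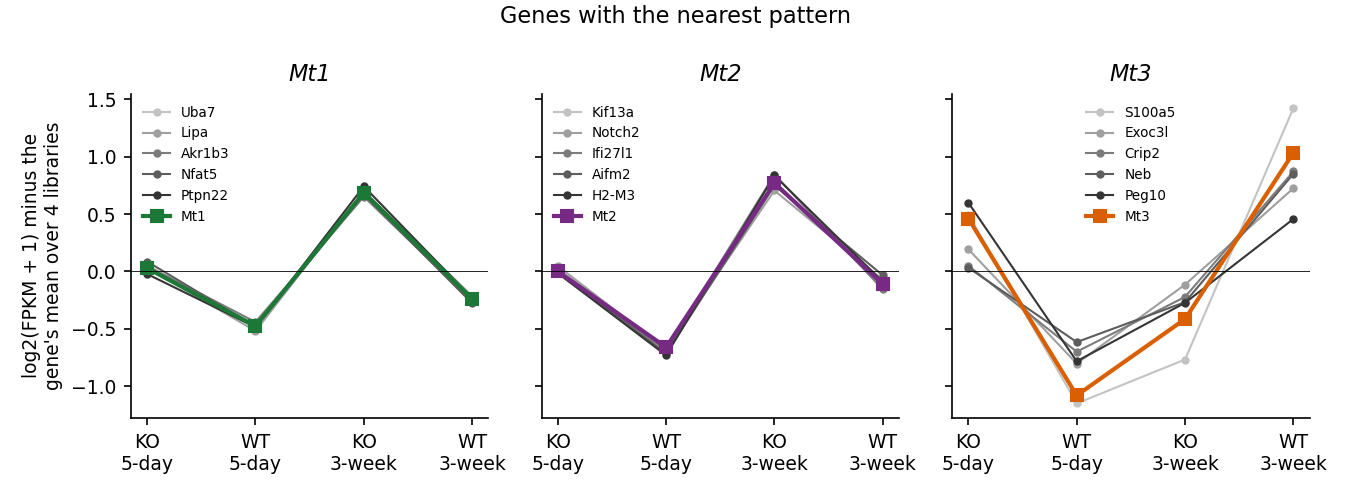
Centred log2(FPKM + 1) over the 4 libraries for Mt1, Mt2 and Mt3, each with its 5 nearest genes. The lines of Mt1 and Mt2 run close to their neighbours (distances up to 0.1), and those of Mt3 spread more widely (0.53 to 0.68).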

How the data were processed

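RNA from 4 libraries, 1 per group taken from the sample titles, was extracted with TRIzol and prepared with a strand-keeping mRNA kit, per the labels' protocols. The authors deposited FPKM made with Bowtie 0.12.8, TopHat 1.3.2 and Cufflinks 2.0.2 on mm10, per the submitters' processing notes. The sources used here do not give the annotation, the read layout or any filter. There were 23746 lines per file. The 240 symbols on several lines were summed, and 1 symbol with a spreadsheet error mark was left out.

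Ratios were log2((a + 1)/(b + 1)) of FPKM for genes with a mean of at least 1 FPKM, and 2-fold marked a difference. No test was run. Depth was inferred from low values, of which 59.8% to 62.6% lay within 0.05 of whole reads when lengths were reduced by 200 bases. The reads so implied gave exact Clopper-Pearson 95% intervals, which cover counting error only. Of the steps, only the 2-fold calls and the inference of depth were run on simulated data. Those data used the same reduction by 200 bases, so they could not check it. The tools were Python 3.11.15, numpy 2.4.6, pandas 2.3.3, scipy 1.17.1, Biopython 1.88 and matplotlib 3.10.9. Sequences came from GENCODE M21 and RefSeq GRCm38.p6.

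Named were the 3 members, Mt4, Men1, genes of 19 lists, the 5 genes nearest each member, and genes 2-fold apart in opposite directions at the 2 times that were not short RNA genes. Members and lists were chosen with earlier results of these data known. Alternatives were the pseudocount, the filter on low values, the scaling of libraries, leaving out short RNA genes and the likeness measure. Others were taking only the highest line of a symbol and, chosen after seeing the data, the transcript length.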

Additional observations from a re-analysis of the deposited data

Results flagged for a closer look

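Short RNA genes left out, in 7 of 10806 compared genes (0.0648%) the KO library stood at least 2-fold above the WT library at one culture time and at least 2-fold below it at the other. With short RNA genes kept, 26 of 10973 (0.237%) did so. With 1 library in each group the difference between the times was not tested. On the log2 scale, the genotype difference at 3 weeks minus that at 5 days was -2.99 in Mt3, -3.83 in S100a5, -3.4 in Cox6b2 and -2.93 in Ctsh, which were higher in KO cells at 5 days. It was 3.68 in Tcf7, 2.66 in Ccl4 and 2.42 in Nt5e, which were lower in KO cells at 5 days. Tcf7, a T cell transcription factor, stood at 12.5 FPKM in KO and 61.3 FPKM in WT cells at 5 days, and at 1.95 FPKM in KO and 0.0622 FPKM in WT cells at 3 weeks. Ccl4, a chemokine, stood at 0.962 FPKM in KO and 3.46 FPKM in WT cells at 5 days, and at 16.5 FPKM in KO and 5.27 FPKM in WT cells at 3 weeks. Nt5e, the ecto-enzyme CD73, stood at 1.74 FPKM in KO and 5.57 FPKM in WT cells at 5 days, and at 2.1 FPKM in KO and 0.387 FPKM in WT cells at 3 weeks.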

How the results depend on the processing

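No alternative turned a direction of Mt1, Mt2 or Mt3. Of their log2 ratios under the alternatives, 70 moved by less than the counting interval reaches to either side and 5 moved more. The 70 include the setting that took only the highest line of a symbol, which left every value of these genes unchanged. Of the list counts and other values, 19 moved past their tolerance, which for a count was 1.5 times, and 150 did not, though some of these changed by a gene or more. Scaling by the median of ratios gave Mt1 1.03 at 3 weeks and 0.74 for the KO culture contrast, and the upper quartile gave 1.06 and 0.73, with 1.02 for Mt2 at 3 weeks. The upper quartile put the median of all compared genes at 3 weeks at 0.03 in place of -0.08, and the share of higher genes among those 2-fold apart at 60.4% in place of 49.3% (58.5% with the median of ratios). Genes 2-fold apart at 5 days numbered 394, against 642 with a pseudocount of 0.1 and 178 with one of 5. With 5 they numbered 898 in place of 1773 at 3 weeks, 468 in place of 959 for the KO culture contrast and 276 in place of 643 for WT, where a mean of at least 5 FPKM gave 421. Genes apart in opposite directions numbered 26, and 7 without short RNA genes. With the shortest annotated transcript, chosen after seeing the data, the intervals of Mt3 were 2.19 to 4.46 at 5 days and 0.265 to 0.457 at 3 weeks. No paired analysis was possible because each group held 1 library, and for the same reason no replicate could be left out.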
